A study of Mus musculus with 19 samples.

Results

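Melanocyte lineage genes were followed in 4 tissues of the mouse embryo. They are 7 genes, Dct, Tyrp1, Tyr, Pmel, Mitf, Kit and Slc45a2, of the 18193 genes that the array annotation names with a single symbol. Every probe set annotated to one of them was taken, 14 in all, and all 14 passed the low-value filter (a value over 20 in at least 1 sample). The 19 samples were 4 of epidermis, 4 of dermis, 6 of UGE (urogenital sinus epithelium) and 5 of UGM (urogenital sinus mesenchyme), each hybridized to an Affymetrix MOE430 2.0 array. The study asked which transcripts distinguish UGE from UGM, the tissues from which the prostate forms, and took skin as a second pair of epithelium and mesenchyme. All 4 groups were untreated C57BL/6 embryos at embryonic day 16, with no transgene or other agent named. Epidermis and dermis came from the skin of the back, which was kept overnight in the cold in dispase before the layers were lifted apart by hand, whereas UGE and UGM were parted with trypsin. Site and separation method therefore cannot be told apart. Each sample is a pool of tissue from many embryos, and since skin and sinus were taken from the same embryos, pools of different groups can share animals. The p-values below measure the spread between pools.

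Melanocytes make pigment in a lysosome-related organelle, the melanosome. They arise from the neural crest, and their precursors, the melanoblasts, travel through the dermis of the embryo and enter the epidermis and later the hair follicles. The transcription factor Mitf drives the lineage by binding E-box letters in the promoters of pigment genes, among them the enzymes Tyr, Tyrp1 and Dct, and the receptor tyrosine kinase Kit supports the survival and migration of melanoblasts. Kit is also used by mast cells and blood progenitors, and Mitf by mast cells and other cells, so these 2 genes mark more than melanocytes.

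The promoters of the 3 enzyme genes are shown because Mitf is known to act through letters in them and because the enzymes differed from one another in the arrays. Of the 7 genes, 5 have an entry in the RefSeq promoter table (GRCm38.p6, 250 bases before to 50 after each start site), and Pmel and Slc45a2 were not matched. The runs below hold the 250 bases before the start site, 5′ to 3′ on the strand of the gene. Tyr is at chr7:87493513-87493762 on the minus strand, Tyrp1 at chr4:80833963-80834212 on the plus strand and Dct at chr14:118052247-118052496 on the minus strand. Capitals mark CATGTG on either strand and, in Tyr and Tyrp1, the longest run of letters that these 2 promoters share.
Tyr: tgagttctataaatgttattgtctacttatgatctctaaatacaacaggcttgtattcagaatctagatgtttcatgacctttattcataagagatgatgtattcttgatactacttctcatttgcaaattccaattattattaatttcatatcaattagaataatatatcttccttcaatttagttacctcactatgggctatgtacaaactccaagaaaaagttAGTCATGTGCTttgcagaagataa
Tyrp1: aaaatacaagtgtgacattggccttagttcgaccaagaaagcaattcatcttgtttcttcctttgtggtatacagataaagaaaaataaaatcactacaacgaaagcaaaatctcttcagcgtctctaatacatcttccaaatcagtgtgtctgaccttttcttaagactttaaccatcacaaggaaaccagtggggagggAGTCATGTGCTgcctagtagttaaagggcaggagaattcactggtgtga
Dct: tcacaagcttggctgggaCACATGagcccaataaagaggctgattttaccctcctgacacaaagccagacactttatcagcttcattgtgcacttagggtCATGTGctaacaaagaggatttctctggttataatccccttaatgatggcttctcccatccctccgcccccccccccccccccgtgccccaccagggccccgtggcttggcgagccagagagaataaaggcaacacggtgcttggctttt
The shared run is AGTCATGTGCT, 11 letters that contain CATGTG, and it begins 24 bases before the start site of Tyr and 49 before that of Tyrp1. Its letters are those of the M-box, an element of pigment gene promoters known to be bound by Mitf. The run was present on either strand in 7 of the 32851 promoters in the table (0.0213%). Dct held CATGTG at 2 places, beginning at -150 on the gene's strand and at -232 on the opposite strand, and the first of these lies within TCATGTGCT, which Tyr and Tyrp1 hold too and which 0.408% of all promoters hold. CATGTG alone was in 14.2% of all promoters and CACGTG, the other E-box form searched, in 7.15%. None of the 3 Mitf and 2 Kit promoter entries held CATGTG or CACGTG within the windows searched. The match of letters is a description and no measurement of binding.

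The values are linear intensities and were put on the log2 scale, on which a difference of 1 is a 2-fold change. Array medians ran from 76.2 to 81.6 in intensity, and pairs of arrays within a group correlated at r = 0.954 to 0.997. Tissue labels were borne out by marker transcripts only in part: the summed intensity of 8 keratinocyte genes was 92387 to 113444 in epidermis, 34659 to 77913 in dermis, 18598 to 26870 in UGE and 774 to 1540 in UGM. That of 8 fibroblast genes was 22493 to 41338 in epidermis, 89270 to 114464 in dermis, 3601 to 17052 in UGE and 77710 to 87440 in UGM, and that of 5 urogenital epithelium genes 29318 to 32657 in UGE against at most 6964 elsewhere. Dermis thus held many keratinocyte transcripts, more than UGE and most of all in dermis replicate 1, so these genes did not bear out its label. UGE replicates 2 and 3 held the most fibroblast transcripts of their group. The lower quartile of the arrays was 4.70 to 4.92 in log2 intensity. Detection calls were not used, so a fold against a group whose mean lay at or under this range is to be read as a lower bound and is written with "at least". In such bulk samples fewer cells of a type and less RNA per cell cannot be told apart.

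Dct, Tyr and Pmel separated skin from urogenital sinus, Slc45a2 did so by less than 2-fold, and Tyrp1 did not. A gene was called at an adjusted p (limma, Benjamini-Hochberg over 41549 probe sets) under 0.01 and a fold change over 2. In epidermis 4 of the 7 genes were higher than in UGE (Dct, Tyr, Pmel and Mitf), where 6.12% of all 17360 genes tested were called higher, and none was lower, where 8.28% of all genes were. In dermis 5 of the 7 were higher than in UGM (the same 4 genes and Kit), against 7% of all genes, and none was lower, against 6.77%. All 8 keratinocyte genes were higher in dermis than in UGM too, with a median log2 fold change of 5.73. The part of keratinocyte transcripts or of cells carried over from epidermis in the dermis values was not tested. Between the skin layers, 3 genes were higher in epidermis than in dermis (Dct, Tyr and Pmel; 5.84% of all genes) and Kit was lower (11.1% of all genes). Between UGE and UGM none of the 7 was called higher or lower, against 6.75% and 10% of all genes. At an unadjusted p under 0.05 only Pmel (0.0418, higher in UGE) and Mitf (0.0125, lower in UGE) differed there, and none passed in the methods' t-test. The median log2 fold change of the 7 genes was 1.65 for epidermis minus UGE, 1.56 for dermis minus UGM, 0.60 for epidermis minus dermis and 0.02 for UGE minus UGM, beside 0.04, 0.07, 0.01 and 0.02 over all genes tested.

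**Figure D1:**
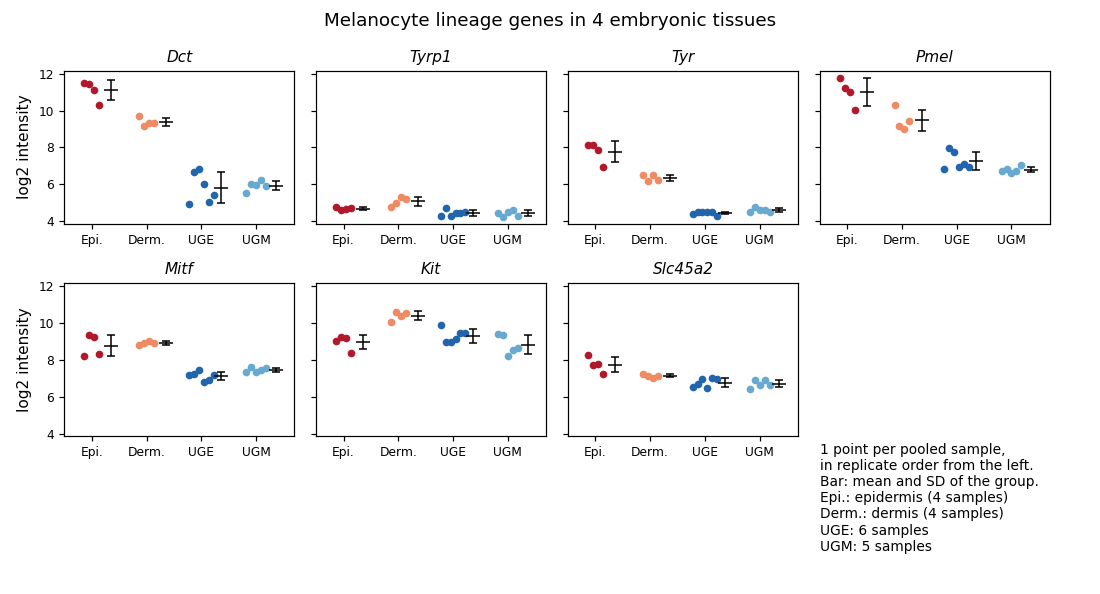
Log2 intensity (y axis) of the 7 genes, each read from its probe set with the highest mean, in every sample of the 4 tissues (x axis); points are pooled samples and bars the mean and SD of a group. Dct, Tyr and Pmel step down by tissue, with all 8 skin samples above all 11 sinus samples, while Kit is highest in dermis and Tyrp1 stays between 4.26 and 5.31 in every sample.

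Dct, which encodes dopachrome tautomerase, the enzyme that converts dopachrome in the eumelanin pathway and one of the first pigment genes that melanoblasts express, showed the widest range (probe set 1418028_at). Its log2 intensity was 11.51, 11.42, 11.10 and 10.32 in epidermis replicates 1 to 4, against 9.69, 9.15, 9.35 and 9.34 in dermis replicates 1 to 4. In the sinus it was 4.95 at lowest, 5.73 at the median and 6.85 at highest in UGE, against 5.54, 6.01, 5.96, 6.22 and 5.91 in UGM. Every epidermis sample lay above every dermis sample, and both lay above all 11 sinus samples, while UGE spanned the whole range of UGM. Epidermis exceeded UGE by 5.26 ± 0.33 (SE; 38.2-fold, adjusted p = 2.84e-10) and dermis exceeded UGM by 3.45 ± 0.34 (10.9-fold, adjusted p = 1.93e-07). Within the skin the difference was 1.71 ± 0.24 (3.26-fold, adjusted p = 0.000452), and within the sinus it was -0.10 with a 95% interval of -0.84 to 0.64. The order of the levels was epidermis, dermis, UGM, UGE, and UGM and UGE did not differ beyond their spread. UGE replicates 2 and 3 had the highest Dct of their group, at 6.68 and 6.85, and these were also the replicates with the most fibroblast transcripts (17052 and 16726 in summed intensity, against 3601 to 8786 in the other 4). The part of these transcripts in the value was not tested.

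Tyr encodes tyrosinase, the rate-limiting enzyme of melanin synthesis. Read from 1417717_a_at, it was 8.15, 8.15, 7.85 and 6.95 in epidermis replicates 1 to 4 and 6.52, 6.16, 6.50 and 6.22 in dermis replicates 1 to 4. UGE gave 4.31 at lowest, 4.49 at the median and 4.51 at highest, and UGM 4.53, 4.76, 4.61, 4.60 and 4.51. The skin layers did not overlap, and all sinus samples lay near or under the arrays' lower quartile. Epidermis exceeded UGE at least 9.98-fold (log2 3.32 ± 0.17, adjusted p = 1.86e-11), dermis exceeded UGM at least 3.35-fold (1.75 ± 0.18, adjusted p = 2.62e-07) and epidermis exceeded dermis 2.68-fold (1.42 ± 0.25, adjusted p = 0.00148). The levels followed the order epidermis, dermis, UGM, UGE, with UGM and UGE not called apart (UGE minus UGM -0.15, 95% interval -0.31 to 0.01). The other probe sets of Tyr were dimmer. Of these, 1456095_at was higher in epidermis than in UGE (1.34 ± 0.11, adjusted p = 1.51e-08) and stood at 0.95 ± 0.15 for epidermis minus dermis (adjusted p = 0.000901), just under the 2-fold limit, and 1448821_at gave 0.28 ± 0.09 and 0.11 ± 0.12 and was called in no comparison. Both sets passed the low-value filter only through skin, as their sinus intensities were at most 17.8 and 19.5. These values, and the median that uses them, are therefore not independent of the filter and are no separate support. With the median of the 3 probe sets taken for the gene, Tyr kept its call for epidermis against UGE (log2 1.11) and lost those for dermis against UGM (0.20, adjusted p = 0.149) and for epidermis against dermis (0.93). Over all alternatives the adjusted p ran from 1.62e-10 to 0.149 for dermis against UGM. After 50 was added before log2 the dermis minus UGM difference was 0.83, also short of 2-fold.

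Tyrp1, whose protein is a melanosomal enzyme that acts after Dct in eumelanin synthesis and stabilizes tyrosinase, behaved differently from Tyr and Dct on this array. On the brightest of its 3 probe sets, 1439409_x_at, it was 4.79, 4.60, 4.68 and 4.70 in epidermis and 4.77, 5.01, 5.31 and 5.24 in dermis. It was 4.27 at lowest, 4.46 at the median and 4.71 at highest in UGE and 4.47, 4.26, 4.50, 4.64 and 4.27 in UGM. Epidermis lay within or below the range of dermis, and all 4 groups were close to the lower quartile of the arrays, so no tissue stood out on this probe set. This probe set was called in no comparison: dermis minus UGM was 0.65 ± 0.12 (adjusted p = 0.000256) and epidermis minus dermis -0.39 (95% interval -0.68 to -0.09). A second set, 1415861_at, gave 4.25, 3.90, 4.01 and 4.27 in epidermis and 4.86, 5.05, 5.25 and 5.37 in dermis. Here all 4 dermis samples lay above every other sample, with means of 3.79 in UGE and 3.84 in UGM. This set passed the low-value filter only through dermis (28.95 to 41.4 in intensity, against at most 19.3 elsewhere). Its calls are therefore not independent of the filter and are given as a description. Epidermis was lower than dermis by a log2 difference of -1.03 ± 0.14 (at least 2.04-fold, adjusted p = 0.000368), and dermis was at least 2.46-fold above UGM (1.30 ± 0.13, adjusted p = 1.89e-07). The third, 1415862_at, ran from 4.12 to 4.63 in group extremes and was called in no comparison. The Tyrp1 promoter shown above holds the same 11 letters as that of Tyr.

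Pmel encodes the amyloid-forming protein of the fibrils on which melanin is laid down. It was 11.78, 11.23, 11.01 and 10.00 in epidermis replicates 1 to 4, against 10.29, 9.17, 9.01 and 9.41 in dermis replicates 1 to 4 (1422523_at). In UGE it was 6.82 at lowest, 7.04 at the median and 7.98 at highest, against 6.73, 6.84, 6.64, 6.75 and 7.03 in UGM. All skin samples lay above all sinus samples, but the skin layers overlapped, since dermis replicate 1 lay above epidermis replicate 4. Epidermis exceeded UGE 13.4-fold (3.74 ± 0.30, adjusted p = 1.05e-08) and dermis exceeded UGM 6.38-fold (2.67 ± 0.31, adjusted p = 1.74e-06). Within each of the 4 same-numbered pairs Pmel was higher in epidermis, and with the replicate number as a block the difference of 1.53 ± 0.24 had an adjusted p of 0.00233. No label states this pairing, which was read from these data and is uncertain. Without the block the difference, 1.53 ± 0.38 (2.90-fold), passed narrowly at an adjusted p of 0.00994 and fell short of the threshold in 11 of 18 alternatives, 6 of which left out a single sample (epidermis replicate 1, 2 or 3, or dermis replicate 2, 3 or 4). Without dermis replicate 1 it was 1.81 ± 0.35 (adjusted p = 0.00363) and without epidermis replicate 4 it was 1.87 ± 0.31 (adjusted p = 0.00192). Its adjusted p over all alternatives ran from 0.0012 to 0.948. The upper end came from treat, which tests for a change beyond 2-fold and not for any difference. Among the other alternatives the highest was 0.055, by the methods' t-test. Dermis replicate 1, the highest dermis sample for Pmel and Dct, also had the highest sum of keratinocyte transcripts in its group (77913, against 34659 to 60672), and epidermis replicate 4, the lowest epidermis sample for Dct, Tyr and Pmel, had the lowest sum of fibroblast transcripts (22493, against 35893 to 41338). The same sample had the highest keratinocyte sum of its group (113444) and the lowest sums of the mast cell (1811) and macrophage genes (802). The part of any of these in the pigment transcripts was not tested. The order of the Pmel levels was epidermis, dermis, UGE, UGM, with UGE and UGM not called apart (0.47, 95% interval 0.02 to 0.92, adjusted p = 0.0992). The highest UGE values were again those of replicates 2 and 3, and without both the difference was 0.17 ± 0.10 (adjusted p = 0.232).

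Slc45a2, a transporter of the melanosome membrane needed for normal pigment, moved the same way with smaller steps. It was 8.25, 7.69, 7.78 and 7.21 in epidermis and 7.24, 7.12, 7.03 and 7.13 in dermis (1451055_at). UGE gave 6.48 at lowest, 6.81 at the median and 7.00 at highest, and UGM gave 6.44, 6.87, 6.62, 6.89 and 6.65. Both skin layers lay above both sinus tissues in every sample, and the skin layers overlapped in epidermis replicate 4. No comparison of the design was called: epidermis minus UGE was 0.97 ± 0.16 (1.96-fold, adjusted p = 8.07e-05), short of 2-fold by a little, epidermis minus dermis 0.60 ± 0.19 (adjusted p = 0.0324) and dermis minus UGM 0.44 ± 0.17 (adjusted p = 0.0477). The difference from UGE passed 2-fold after quantile normalization (1.08), with the replicate number as a block (1.04), without UGE replicates 2 and 3 together (1.003, chosen after seeing the data), and without epidermis replicate 4 (1.15) or UGE replicate 3, 5 or 6 (1.01, 1.02 and 1.01). The block there joined same-numbered skin and sinus samples, which no label links. In the 4-group fit, epidermis was called above UGM (1.04 ± 0.17, adjusted p = 3.75e-05). The second probe set, 1437430_at, gave 0.86 ± 0.14 for epidermis minus UGE and 0.53 ± 0.15 for dermis minus UGM.

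**Figure D2:**
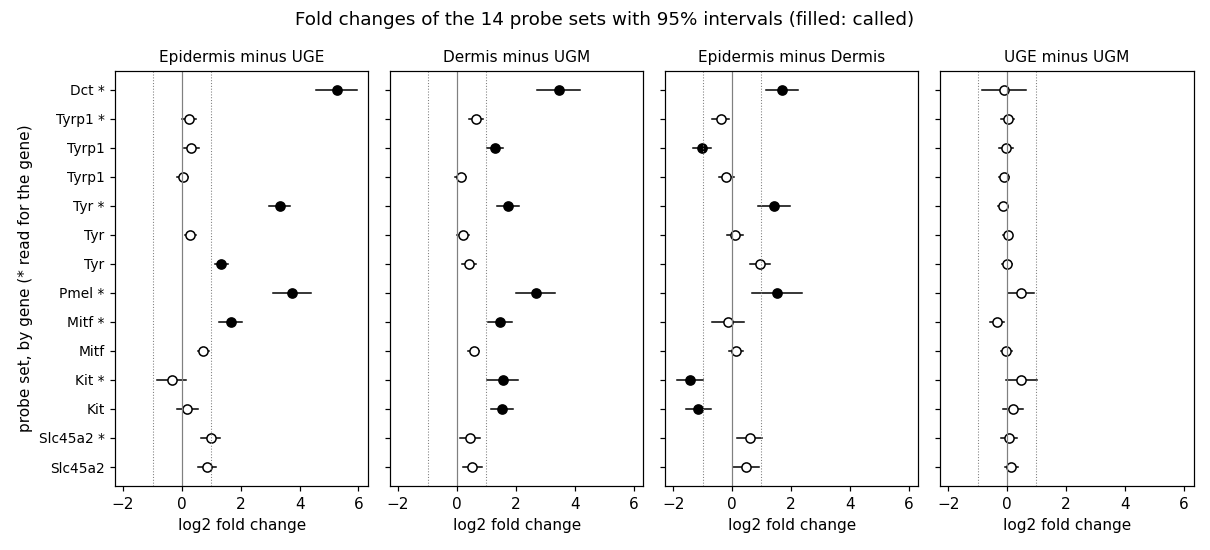
Log2 fold changes (x axis) of the 14 probe sets (y axis, by gene, with the set read for the gene marked *) in 4 comparisons, with 95% intervals; filled points passed an adjusted p of 0.01 and 2-fold, and dotted lines mark 2-fold. Filled points lie to the right in the first 2 panels, on both sides in the third, where both Kit sets and 1 Tyrp1 set lie to the left, and are missing from the panel of UGE minus UGM.

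Mitf, the transcription factor of the lineage, separated skin from sinus but not the skin layers. On 1455214_at it was 8.21, 9.32, 9.22 and 8.31 in epidermis and 8.79, 8.89, 9.01 and 8.93 in dermis. UGE gave 6.80 at lowest, 7.17 at the median and 7.42 at highest, against 7.31, 7.60, 7.35, 7.44 and 7.53 in UGM. Epidermis fell into 2 samples above dermis (replicates 2 and 3) and 2 below it (replicates 1 and 4), and no skin sample overlapped the sinus. Epidermis exceeded UGE 3.15-fold (1.65 ± 0.19, adjusted p = 8.42e-07) and dermis exceeded UGM 2.75-fold (1.46 ± 0.19, adjusted p = 7.46e-06). Epidermis minus dermis was -0.14 with a 95% interval of -0.69 to 0.41. The levels ran dermis, epidermis, UGM, UGE, with neither dermis and epidermis nor UGM and UGE called apart. The dimmer set 1422025_at gave 0.73 ± 0.09 and 0.57 ± 0.09 for epidermis minus UGE and for dermis minus UGM, both under 2-fold, with adjusted p of 1.64e-06 and 5.64e-05. Of the 3 genes of the Mitf family, Tfeb, Tfe3 and Tfec, only Tfec was called, lower in epidermis than in dermis (-1.16 ± 0.17, adjusted p = 0.000486) at levels of 4.23 ± 0.16 and 5.39 ± 0.33 (SD, n = 4 each).

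Kit ran against Dct, Tyr and Pmel within the skin. Tyrp1 also lay lower in epidermis than in dermis (-0.39, not called). Both of its skin means were close to the arrays' lower quartile, so a direction shared with Kit cannot be read from it. On 1452514_a_at Kit was 9.03, 9.21, 9.17 and 8.37 in epidermis, against 10.02, 10.56, 10.38 and 10.53 in dermis. In the sinus it was 8.94 at lowest, 9.26 at the median and 9.89 at highest in UGE, against 9.40, 9.34, 8.22, 8.51 and 8.61 in UGM. Dermis lay above all other samples, and epidermis, UGE and UGM overlapped. Epidermis was 2.69-fold below dermis (-1.43 ± 0.20, adjusted p = 0.000391) and dermis 2.94-fold above UGM (1.56 ± 0.25, adjusted p = 7.07e-05), while epidermis minus UGE was -0.35 (95% interval -0.86 to 0.15). The order was dermis, UGE, epidermis, UGM, with UGE and epidermis, and epidermis and UGM, not called apart. The second set, 1415900_a_at, gave -1.15 ± 0.19 for epidermis minus dermis and 1.53 ± 0.18 for dermis minus UGM, both called.

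Transcripts of mast cells and blood progenitors, which use Kit too, mostly moved with Kit in epidermis against dermis and in dermis against UGM. They did not in epidermis against UGE or in UGE against UGM. Of 8 mast cell genes, 7 were lower in epidermis than in dermis and 6 were higher in dermis than in UGM, with 1 (Gata2) lower there. In epidermis against UGE 3 were higher and 1 lower, and in UGE against UGM 2 were lower (Gata2 and Hdc), while Kit was called in neither. Cpa3, a carboxypeptidase of mast cell granules, averaged 10.63 ± 0.61 in epidermis and 13.36 ± 0.20 in dermis (SD, n = 4 each), and 4.84 ± 0.11 in UGE (n = 6) and 5.55 ± 0.28 in UGM (n = 5). Epidermis was thus 6.61-fold below dermis for Cpa3 (-2.72 ± 0.26, adjusted p = 4.36e-05). The mast cell chymase gene Cma1 followed at -3.47 ± 0.43 (adjusted p = 0.000196) and the tryptase gene Tpsb2 at -3.58 ± 0.40 (adjusted p = 9.66e-05). The summed intensity of the 8 genes was 1811 to 6243 in epidermis, 26674 to 35002 in dermis, 1757 to 4108 in UGE and 5629 to 5947 in UGM. In the sinus the sum was mostly Gata2, a transcription factor of many cell types, and Hdc, the histamine-forming enzyme, which averaged 1808 and 529 in intensity in UGE and 3893 and 1643 in UGM. The granule genes Cpa3 and Cma1 averaged 28.7 and 41.3 in UGE and 47.5 and 58.4 in UGM. Fcer1a was called in no comparison. Of 5 blood progenitor genes 4 were lower in epidermis than in dermis (Myb, Gata1, Ptprc and Runx1), as were all 6 macrophage genes, and 4 of each list were higher in dermis than in UGM. This direction was not particular to cells that use Kit. All 8 fibroblast genes were lower in epidermis than in dermis, and 2 were higher and 0 lower in dermis than in UGM. The part of any of these cells in the Kit values was not tested. In UGE the mast cell sum was lowest in replicate 6 (1757) and Kit there was 9.47, and the highest Kit of the group (9.89, replicate 1) stood with a sum of 1802. Ano1, the measured marker of interstitial cells of Cajal, was called in no comparison. Beside Dct, Tyr and Pmel the mast cell sum was lower in epidermis than in dermis, where these genes were higher in epidermis, and higher in dermis than in UGM, as these genes were.

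**Figure D3:**
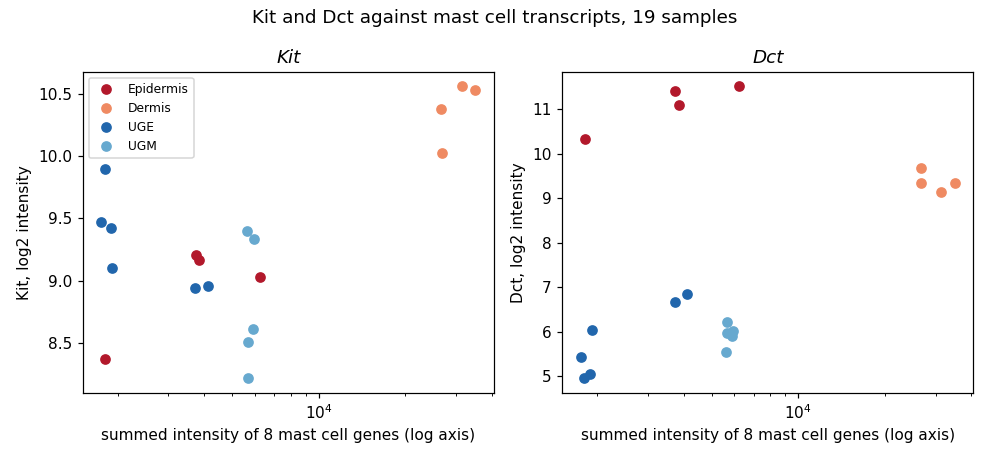
Log2 intensity of Kit (left) and Dct (right) on the y axes against the summed intensity of 8 mast cell genes (x axis, log scale) in 19 samples coloured by tissue. The 4 dermis samples, with sums of at least 26674, hold the highest Kit, whereas Dct is highest in the 4 epidermis samples, whose sums are at most 6243.

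Whether the step between epithelium and mesenchyme differed between skin and sinus was tested as the interaction, epidermis minus dermis less UGE minus UGM. It was called positive for 2 of the 7 genes (5.41% of all genes tested) and negative for 1 (7.53%). Tyr gave 1.57 ± 0.25 (adjusted p = 9.46e-05) and Kit -1.91 ± 0.35 (adjusted p = 0.000458). For Tyr both sinus means (4.46 in UGE and 4.60 in UGM) lay under the arrays' lower quartile, where a step could be missed. Its interaction thus mostly restates its difference within the skin (1.42) and measures no sinus step. Of the 8 mast cell genes 6 were called negative, as were 4 of the 5 blood progenitor genes and 2 of the 6 macrophage genes. In each of these lists 0 were called positive. The part of such cells in the Kit interaction was not tested. Dct, at 1.80 ± 0.47, passed narrowly (adjusted p = 0.00997). Its call was lost in 20 of 28 alternatives, 16 of them the omission of a single sample (any sample but UGE replicates 2 and 3 and epidermis replicate 4). With the replicate number as a block, which joined same-numbered skin and sinus samples that no label links, the Dct interaction was 1.72 (adjusted p = 0.0262). Without UGE replicates 2 and 3 together it was 2.27 ± 0.34 (adjusted p = 8.18e-05), and over all alternatives its adjusted p ran from 8.18e-05 to 0.877. That upper end again came from treat, the test for a change beyond 2-fold. Among the other alternatives the highest was the 0.0262 of the replicate block. Pmel gave 1.07 ± 0.44 (adjusted p = 0.105) and Mitf 0.20 (95% interval -0.36 to 0.76), so no difference between sites was shown for them.

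Other genes of the pathway were taken from lists. Beside the counts of every list, here, above and below, stand the shares of all genes tested that were called higher and lower. These were 6.12% and 8.28% in epidermis against UGE and 7% and 6.77% in dermis against UGM. Within the sites they were 5.84% and 11.1% in epidermis against dermis and 6.75% and 10% in UGE against UGM. Of 5 melanosome protein genes measured, 3 were higher in epidermis than in UGE and 1 was higher in each of dermis against UGM, epidermis against dermis and UGE against UGM. Mlana, which takes part in the maturation of Pmel, was 7.44, 7.18, 6.71 and 6.80 in epidermis, against 6.21, 5.49, 5.38 and 5.70 in dermis. In UGE and UGM it averaged 4.68 and 4.66, under the arrays' lower quartile, so that its differences from the sinus are lower bounds. They were 2.36 ± 0.16 for epidermis minus UGE (adjusted p = 1.11e-09) and 1.04 ± 0.17 for dermis minus UGM (adjusted p = 7.91e-05), and epidermis minus dermis was 1.34 ± 0.21 (adjusted p = 0.000841). The melanosomal receptor gene Gpr143 (1.41 ± 0.19, with UGE at 4.47) and the channel gene Trpm1 (1.25 ± 0.17) were higher in epidermis than in UGE. Gpnmb, a relative of Pmel that other cells express too, was the gene higher in UGE than in UGM (1.04 ± 0.18), and Oca2, a transporter of the melanosome, was called in none of these 4 comparisons. The median log2 fold change of the list was 1.25 for epidermis minus UGE, 0.65 for dermis minus UGM, 0.63 for epidermis minus dermis and 0.02 for UGE minus UGM.

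Of 20 genes of melanosome biogenesis and transport, 4 were higher and none lower in epidermis than in dermis (5.84% and 11.1% of all genes tested). In epidermis against UGE 3 were higher and none lower (6.12% and 8.28%). In dermis against UGM 3 were higher and 1 lower (7% and 6.77%), and in UGE against UGM 3 were higher and 2 lower (6.75% and 10%). Their medians were 0.17, 0.00, 0.23 and 0.18, beside 0.01, 0.04, 0.07 and 0.02 over all genes tested, so the middle gene of the list moved little. Rab38, a small GTPase that carries pigment enzymes to the melanosome, was highest in epidermis and next in dermis: 12.70, 12.62, 12.75 and 12.80 in epidermis and 11.74, 10.06, 10.69 and 10.79 in dermis, with UGE and UGM averaging 9.01 ± 0.18 (SD, n = 6) and 8.83 ± 0.16 (n = 5). It was 3.73-fold higher in epidermis than in dermis (1.90 ± 0.29, adjusted p = 0.000615) and 13.1-fold higher than in UGE (3.71 ± 0.21, adjusted p = 5.72e-11). Unlike Dct, Tyr and Pmel, it was not lowest in epidermis replicate 4. The dermis samples had the same order for Rab38 as for the keratinocyte sum (77913, 34659, 52649 and 60672 in replicates 1 to 4), and of the 8 keratinocyte genes 4 were higher in epidermis than in dermis and 6 higher than in UGE. Their part in the Rab38 values was not tested. Rab27a, which ties melanosomes to the actin motor, rose in epidermis against dermis (1.17 ± 0.14) and against UGE (1.68 ± 0.15), and Lyst, a gene of lysosome-related organelles, in the same comparisons (1.44 ± 0.24 and 3.08 ± 0.30). Mreg, known in mice as the dilute suppressor of melanosome transport, was higher in epidermis than in dermis (1.82 ± 0.22) and in dermis than in UGM (1.77 ± 0.19), but its largest difference was within the sinus, where UGE was 14.5-fold above UGM (3.85 ± 0.14). Myo5a, the actin motor itself, was lower in UGE than in UGM (-2.34 ± 0.22), and Rab32, a close relative of Rab38, was higher in dermis than in UGM (1.23 ± 0.17).

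The transcription factors that act before or beside Mitf were spread over all 4 tissues. Of 9, 4 were higher and 1 lower in epidermis than in UGE, 1 was higher in dermis than in UGM, 1 was higher and 2 lower in epidermis than in dermis, and 2 were higher and 5 lower in UGE than in UGM. The count in dermis against UGM is near the share of all genes there (7%). Pax3, which acts with Sox10 on Mitf, was high in both skin layers, at 7.28, 7.66, 7.53 and 7.50 in epidermis and 7.37, 6.98, 7.08 and 7.17 in dermis, against means of 6.08 in UGE and 6.02 in UGM. It was called for epidermis against UGE (1.41 ± 0.12, adjusted p = 2.47e-08) and dermis against UGM (1.14 ± 0.13, adjusted p = 8.39e-07) and in no comparison within a site. Sox10, a factor of the whole neural crest glial and pigment lineage, was not particular to skin: its means were 8.95 in epidermis, 9.40 in dermis, 7.35 in UGE and 9.61 in UGM, and it was lower in UGE than in UGM (-2.26 ± 0.12, adjusted p = 2.46e-08) and higher in epidermis than in UGE (1.60 ± 0.18). Within epidermis Sox10 was lowest in replicate 4 (8.22, against 8.98 to 9.55), the same sample that was lowest for Dct, Tyr and Pmel. Of 9 Schwann cell genes measured, a list that holds Sox10, Foxd3 and Erbb3 too, 6 were lower and 2 higher in UGE than in UGM, 3 lower and 2 higher in epidermis than in dermis, 3 higher and none lower in epidermis than in UGE, and 1 higher and 1 lower in dermis than in UGM. Foxd3, Snai2, Zeb2 and Lef1 were lower in UGE than in UGM (by -1.27, -1.84, -3.78 and -1.22 on the log2 scale), and Foxd3 and Zeb2 were lower in epidermis than in dermis (-1.11 and -3.03). Tfap2a was higher in both epithelia (1.69 in epidermis against dermis and 1.72 in UGE against UGM). Lef1 (2.05) and Zeb2 (1.50) were higher, and Sox9 lower (-1.06), in epidermis than in UGE, and Sox9 was higher in UGE than in UGM (1.52).

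Receptors and ligands of melanoblasts differed in their patterns. Mc1r, the melanocortin receptor of melanocytes, was ordered like Dct and Tyr within the skin, with 7.93, 7.46, 7.37 and 6.90 in epidermis and 6.44, 5.80, 6.18 and 6.00 in dermis, and with means of 4.94 in UGE and 4.98 in UGM. It was called for epidermis against UGE (2.47 ± 0.15), dermis against UGM (1.13 ± 0.16) and epidermis against dermis (1.31 ± 0.21, adjusted p = 0.000985). Ednrb, the endothelin receptor of melanoblasts and of enteric and glial precursors, averaged 4.65 in UGE and 10.13 in UGM. It was at least 44.4-fold lower in UGE than in UGM (-5.47 ± 0.17, adjusted p = 3.79e-10) and 3.40-fold lower in epidermis than in dermis (-1.77 ± 0.17, adjusted p = 4.11e-05), with epidermis at least 8.30-fold above UGE (3.05 ± 0.18). Of the other receptors, Erbb3 was higher in epidermis than in dermis (1.44) and in UGE than in UGM (2.67), and Met was higher in UGE than in UGM (9.69-fold) and in dermis than in UGM (2.63-fold) and lower in epidermis than in UGE (2.46-fold). In all, 2 of the 4 receptors were higher and 1 lower in epidermis against UGE, in epidermis against dermis and in UGE against UGM, and 2 were higher and none lower in dermis against UGM. Kitl, the ligand of Kit, was 9.86, 10.32, 9.97 and 10.46 in epidermis, against 11.79, 12.20, 12.41 and 12.39 in dermis, so that ligand and receptor were both highest in dermis. Kitl was 4.13-fold lower in epidermis than in dermis (-2.05 ± 0.18, adjusted p = 2.42e-05) and 4.57-fold higher in dermis than in UGM (2.19 ± 0.46, adjusted p = 0.000975), and within UGE it spread from 7.42 to 10.41, with replicates 2 and 3 lowest. Of 8 ligand genes measured, 3 were lower in epidermis than in dermis (Kitl and the proteases Adamts20 and Adamts9, at -3.02 and -3.24), 2 were lower in UGE than in UGM (Adamts20 and Adamts9, -4.48 and -1.46), and in epidermis against UGE 2 were higher (Adamts20, 2.38, and the endothelin gene Edn3, 1.15) and 1 lower (Adamts9, -1.37). Adamts20 averaged 4.37 in UGE, under the arrays' lower quartile, so its differences from UGE are lower bounds. In dermis against UGM Kitl was the gene called.

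**Figure D4:**
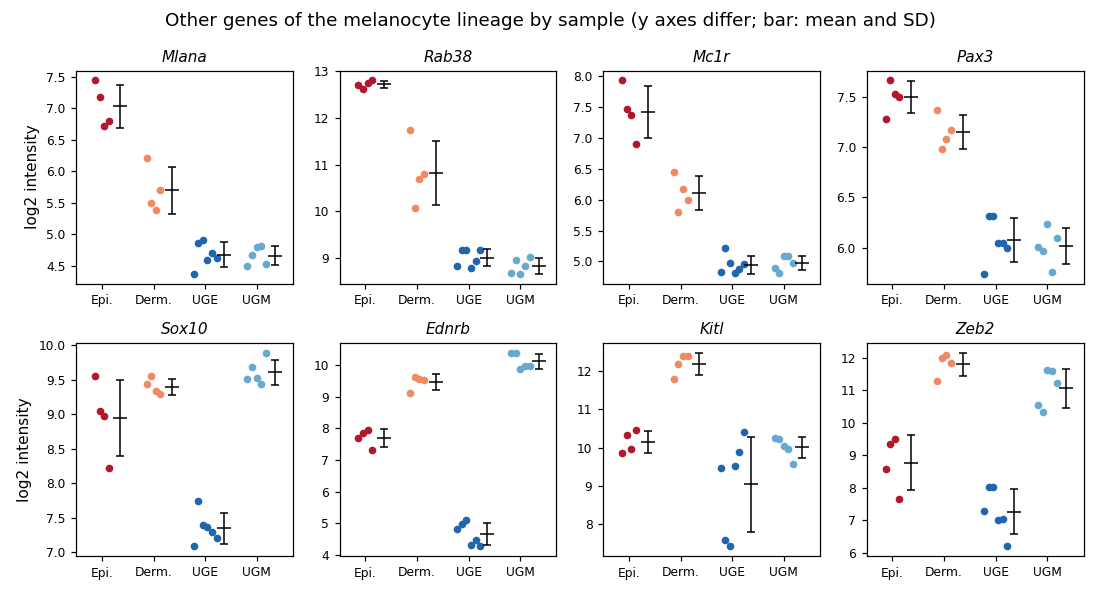
Log2 intensity (y axes, which differ between panels) of 8 other genes of the lineage in every sample of the 4 tissues (x axis); points are pooled samples, in replicate order within a group, and bars the mean and SD. Mlana, Rab38 and Mc1r step down from epidermis to dermis to sinus, Pax3 is high in both skin layers, and Sox10, Ednrb and Zeb2 are lowest in UGE and high in UGM.

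Genes with the most similar pattern over the 19 samples were found by Pearson's r of log2 values, as a description: the samples form 4 tissues, so r mostly reflects the tissue means. Closest to the mean standardized profile of Dct, Tyrp1, Tyr, Pmel and Slc45a2 was Irx4 (r = 0.974), followed by Endou, Cbr3, Stim1, Acer1, Calm4, Mc1r (0.961), Rab44, Dsc1 and 2310011E23Rik (0.958). Over the 8 skin samples alone r was 0.908 for Mc1r and 0.552 to 0.857 for the other 9. Dsc1, a cadherin of desmosomes, had means of 13.03 in epidermis, 10.96 in dermis, 4.02 in UGE and 3.91 in UGM. Closest to Kit were Rassf3 (0.900), Slc16a12, Adgrg3, Snx7 and Arhgef6 (0.875). Closest to Mitf were Hoxc4 (0.949), Gpr18, Cd44, Pcsk6 and the mast cell gene Cpa3 (0.931), but over the 8 skin samples these 5 ranged from -0.10 to 0.83.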

How the data were processed

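RNA of 19 pooled samples was read on MOE430 2.0 arrays. The values deposited by the authors are linear intensity per probe set, already normalized between arrays. The submitters' processing notes and the methods name GCOS 1.4, MAS5 detection calls and PLIER, but not which of these produced the table. Detection calls were not used.

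From the deposited intensity, log2 values were taken with no further normalization, and 64 control probe sets of 45101 were left out. Moderated 2-sided tests were run with limma 3.58.1 under R 4.3.3, by lmFit and eBayes, with Benjamini-Hochberg adjustment over 41549 tested probe sets. The code was tested on simulated data. Epidermis minus dermis and UGE minus UGM were fitted in their own samples. The other comparisons and the interaction came from a fit of all 4 groups. Of the probe sets tested for a gene, the brightest on average (mean log2) stood for it. Medians and shares over all genes used the 17360 genes with a tested probe set.

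The genes named are the 7 members with all probe sets, the called members of the lists, up to 6 of the transport list with the largest change, markers that moved with a result, and the 10, 5 and 5 genes most like the pigment profile, Kit and Mitf. The members and lists were chosen with earlier results of these data known. Lists of hair germ genes (in epidermis against dermis 1 of 7 measured was lower, and in dermis against UGM 5 were higher) and urogenital epithelium genes (all 5 higher in UGE than in UGM) were run too. Slc24a5, Asip, Etv1 and Foxi3 were not measured.

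Deviations of same-numbered epidermis and dermis samples were weakly and positively correlated (r = 0.343, 0.108, 0.264 and 0.168). Epidermis replicate 2, however, was most like dermis replicate 3. Pairing by number was used only as an alternative. It is uncertain, since it comes from these data and no label states it. The number of arrays limits the precision. Alternatives were 50 added before log2, quantile normalization, no low-value filter, eBayes with trend and robust, an adjusted p under 0.05, treat at 2-fold, the replicate block, the median over a gene's probe sets, the methods' t-test, other sets of groups in the fit, and leaving samples out. Leaving out UGE replicates 2 and 3 together for epidermis against UGE and for the interaction was chosen after seeing the data.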

Additional observations from a re-analysis of the deposited data

Results flagged for a closer look

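For 3 genes the step between epithelium and mesenchyme differed between skin and urogenital sinus in a test of the difference itself (limma, 4-group fit). Tyr gave 1.57 on the log2 scale and Kit -1.91. Both sinus means of Tyr lay under the arrays' lower quartile, so a sinus step in Tyr could be missed and its value mostly restates the skin difference. Dct gave 1.80, a call that most omissions of a single sample removed. In none of the 28 pairs of gene and tissue did the highest or lowest sample stand apart by Dixon's limit at 95%.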

How the results depend on the processing

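The 16 called differences of the 7 genes gave 412 values under alternatives, of which 368 stayed past both thresholds, 44 missed one and 0 changed sign. Under treat, which tests for a change beyond 2-fold, 0 of the 7 genes were called in epidermis against dermis and 0 in the interaction, and 3 each in dermis against UGM and in epidermis against UGE (Dct, Tyr and Pmel). By the methods' t-test 2 were called in epidermis against dermis (Dct and Kit). Leaving out each replicate in turn gave 3 to 4 called genes for epidermis against dermis, 4 to 5 for epidermis against UGE, 5 for dermis against UGM, 2 to 3 for the interaction and 0 for UGE against UGM. With the replicate number as a block, Dct was no longer called in the interaction (1.72) and Slc45a2 was called in epidermis against UGE (1.04), and no other call changed. In these fits the block joined same-numbered samples of skin and sinus, which no label links, so they do not account for a known pairing. Same-numbered UGE and UGM samples deviated together in replicate 1 (r = 0.65) but not in replicates 2 to 5 (r = -0.41 to 0.14). Their numbers were therefore not taken to pair them.

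Differences that were not called and lay near 0 changed sign. UGE minus UGM ran from -0.3028 to 0.0775 for Dct, from -0.0015 to 0.1199 for Slc45a2 and from -0.035 to 0.0713 for Tyrp1 when single replicates were left out, and epidermis minus dermis from -0.3262 to 0.0457 for Mitf. For Tyrp1 UGE minus UGM was -0.0068 without UGE replicates 2 and 3 and -0.0407 with the median of its probe sets, and for Tyr it was 0.0124 with that median. Tyrp1 and the sinus values of Tyr lie in the lowest part of the signal range, where 4 to 6 arrays per group can leave small differences undetected.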
